A study of Mus musculus with 24 samples.

Results

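The 42 cytosolic ribosomal protein genes measured here were the genes whose array probe set the platform annotation gives to 1 gene with a symbol of the Rpl or Rps series, together with Rplp0, Rplp2 and Rpsa. Where a gene had several such probe sets, the one with the highest average signal in the series stood for it. They comprise 22 proteins of the large (60S) and 20 of the small (40S) ribosomal subunit, out of 18193 genes with such a probe set in the series. The rule matched 94 probe sets, and 22 of the members had several, up to 6. Another 27 ribosomal protein genes, Rpl3, Rpl5, Rpl10 and Rplp1 among them, were listed only on probe sets that the annotation gives to several genes, so they have no value of their own here. The members were chosen by name, and their levels played no part in the rule beyond the choice of probe set within a gene.

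The study profiled small intestinal crypts, which hold the dividing progenitors, and villi, which hold the differentiated cells, of mice of the strain C57BL/6;FVB aged 2 months. Wild-type mice (WT) were set beside mice labelled Rb-/- (Rb), which lack the retinoblastoma protein, beside mice labelled E2f1-/-;E2f2-/-;E2f3-/- (TKO), which lack the E2F transcription factors E2f1, E2f2 and E2f3, and beside mice lacking all of these genes together (QKO). All mice, WT included, had received beta-naphthoflavone by intraperitoneal injection, and the intestines were taken 7 days later. The design asks how the crypt and villus programmes change when Rb, the activating E2Fs, or both are lost. Each of the 8 groups of genotype and compartment had 3 arrays, 24 in all. The sources used here name neither the driver of any conditional deletion nor the share of cells it reached. Nothing in the labels ties the 3 arrays of a group to 3 different mice. The p-values measure the spread between arrays within groups, pooled over all 8 groups, and this spread may in part be technical.

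Ribosomal proteins assemble with the ribosomal RNAs in the nucleolus into the subunits that make protein. Their mRNAs are among the most abundant in growing cells, and nearly all begin with a C followed by a run of pyrimidines, the 5′ terminal oligopyrimidine (TOP) motif, through which mTOR and Larp1 control their translation and stability. A renewing epithelium such as the intestine makes most of its new ribosomes in the dividing crypt cells, where Myc is known to drive ribosome production.

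The run of C and T letters at the annotated start of transcription is the feature that these genes are best known to share, and 8 examples are printed with it in capitals. They are 30-base windows of the coding strand, written 5′ to 3′, with 15 bases on each side of the start that RefSeq annotates on mouse build GRCm38.p6.
Rplp2: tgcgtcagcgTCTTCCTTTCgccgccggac
Rpl14: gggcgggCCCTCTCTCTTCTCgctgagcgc
Rpl35: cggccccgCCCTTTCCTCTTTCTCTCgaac
Rpl38: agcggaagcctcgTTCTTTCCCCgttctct
Rpl27a: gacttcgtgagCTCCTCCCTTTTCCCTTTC
Rps6: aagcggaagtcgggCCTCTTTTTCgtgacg
Rps10: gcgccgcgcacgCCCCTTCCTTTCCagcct
Rps18: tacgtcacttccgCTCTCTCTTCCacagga
Rplp2 lies at chr7:141447636-141447665, Rpl14 at chr9:120571502-120571531, Rpl38 at chr11:114668565-114668594 and Rpl27a at chr7:109519180-109519209, all on the plus strand. Rpl35 lies at chr2:39005117-39005146, Rps6 at chr4:86857353-86857382, Rps10 at chr17:27635230-27635259 and Rps18 at chr17:33955651-33955680, all on the minus strand.

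RefSeq promoter windows were found for 37 of the 42 members, 43 windows in all, each with 250 bases before and 50 after a start. A run of at least 5 C or T letters that holds the start was present in 13 of the 43 windows (30.2%), against 10.1% of all 32851 promoter windows of the table. Several annotated starts lie a few bases away from such a run, and Rpsa, whose window has none over its start, shows this.
Rpsa: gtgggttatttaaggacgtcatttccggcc
This window lies at chr9:120127751-120127780 on the plus strand. The letters CCGGAAG, the core bound by ETS factors, were present on either strand in 18 member windows (41.9%), against 8.86% of all windows. The letters CACGTG, the E-box read by Myc, were present in 11.6% of the member windows and 7.15% of all windows. Of 3 spellings of an E2F site (TTTCCCGC, TTTGGCGC and TTTCGCGC), searched on both strands, at least 1 was present in 2.33% of the member windows and 1.84% of all windows. The 1 member with such letters was Rpsa. A match is only a match of letters, and its absence concerns these windows alone.

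The signal of the deleted genes was read first. Rb1 read 10.31, 10.59 and 8.46 in WT crypts and 8.23, 10.25 and 8.87 in Rb crypts, so the libraries labelled WT crypts 3 and Rb crypts 2 each read like the other group. In villi Rb1 was between 10.70 and 10.93 in WT and between 8.84 and 9.36 in Rb, with no overlap. It was not known whether the probe sets of E2f1, E2f2 and E2f3 lie in the deleted parts, so they check nothing here. Results that use the Rb or WT crypts are given with and without these 2 arrays where that changes them.

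In WT mice the ribosomal protein genes were lower in villi than in crypts almost throughout. Signals are on the log2 scale, where a difference of 1 is a 2-fold change, and a gene was called changed at a limma adjusted p under 0.05 over all 18193 genes. Of the 42 members, 39 were called lower in WT villi, against 18.6% of all genes, and 1 was called higher, against 18.8% of all genes. The median difference was -0.83, while the median of all genes was 0.08. The arrays of the 2 compartments did not overlap for 41 members on the lower side, against 23.3% of all genes. In bulk tissue, fewer cells that express these genes and less of their RNA per cell cannot be told apart.

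**Figure D1:**
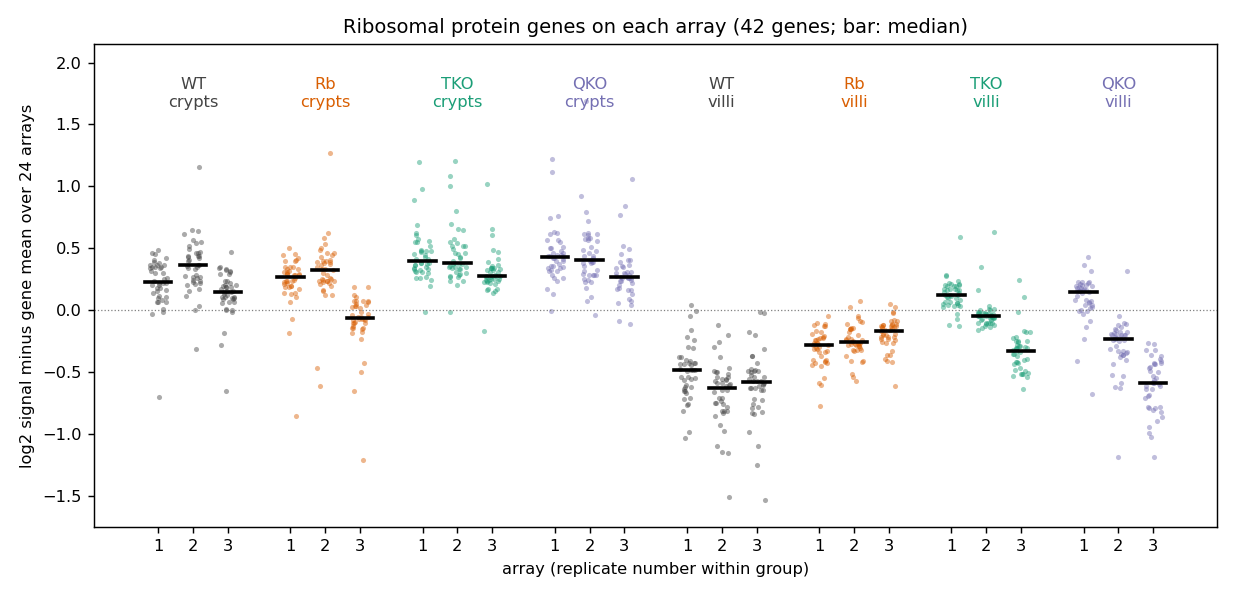
Deviation of each of the 42 ribosomal protein genes from its mean over the 24 arrays (log2, y axis) on each array (x axis, by group and replicate number), with 1 point per gene and a bar at the array's median. The WT villus medians lie between -0.63 and -0.49, and the medians of the TKO and QKO villus arrays spread from 0.12 down to -0.33 and from 0.15 down to -0.59.

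Rps19, a small-subunit protein needed for maturation of the 40S particle and the gene most often mutated in Diamond-Blackfan anaemia, read 13.11, 13.26 and 13.06 in WT crypts and 11.73, 11.57 and 11.62 in WT villi. Every villus array lay more than 1 unit below every crypt array. The difference was -1.51 ± 0.20 (standard error, 3 arrays a group, adjusted p = 5.7e-06, limma). Rplp0, the scaffold of the large subunit's stalk, read 13.86, 13.93 and 13.80 in crypts and 13.10, 13.00 and 13.03 in villi, and fell by 0.82 (adjusted p = 3.2e-05, limma). Rplp2, another stalk protein, read 13.81, 13.92 and 13.78 against 12.97, 12.75 and 12.86 and fell by 0.98 (adjusted p = 5.7e-06). The arrays of the 2 compartments were separate for all 3 genes.

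Rpsa, the laminin receptor protein of the small subunit, read 13.51, 13.55 and 13.34 in WT crypts and 12.39, 11.99 and 12.43 in WT villi, a difference of -1.20 ± 0.17 (adjusted p = 1.2e-05, limma). Rps6, the small-subunit protein phosphorylated by S6 kinase downstream of mTOR, read 9.47, 9.53 and 8.99 against 8.37, 8.17 and 8.36. It fell by 1.03 (adjusted p = 0.00038, limma). Both genes were separate between the compartments. Rpl11, which binds Mdm2 when ribosome assembly fails, fell by 1.12 (adjusted p = 2.2e-05), and Rpl22 fell by 1.01 (adjusted p = 7e-05).

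The members with the largest falls in WT were Rpl12, at -1.72 ± 0.34 (adjusted p = 0.00035, limma), Rpl14, at -1.57 ± 0.26 (adjusted p = 6.6e-05), Rps19, Rpl35 at -1.28 ± 0.21 and Rpl8 at -1.28 ± 0.17. Rpl12, a protein at the base of the stalk, read 7.94, 8.63 and 7.56 in crypts and 6.65, 6.37 and 5.94 in villi. Rpl14 read 7.999, 8.22 and 7.65 against 6.62, 6.14 and 6.39. In both genes the crypt arrays varied more among themselves than those of Rps19 did, yet all stood above the villus arrays.

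The exceptions were few. Rpl27a was called higher in WT villi, reading 7.88, 8.27 and 7.93 in crypts and 8.63, 8.46 and 8.57 in villi, a difference of 0.53 ± 0.20 (adjusted p = 0.044, limma). This call is close to the threshold, with an adjusted p of 0.053 when all 45037 probe sets entered the fit, and it was lost when the 2 crypt arrays whose Rb1 signal goes against their label were left out. Rps16 and Rps27 were not called, at -0.18 and -0.26. The probe set of Rps16 averaged 3.18, near the bottom of the scale, so it hardly reads this gene's mRNA. X-linked Rps4x and Rpl39 were called lower as well, at -0.65 and -0.52.

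**Figure D2:**
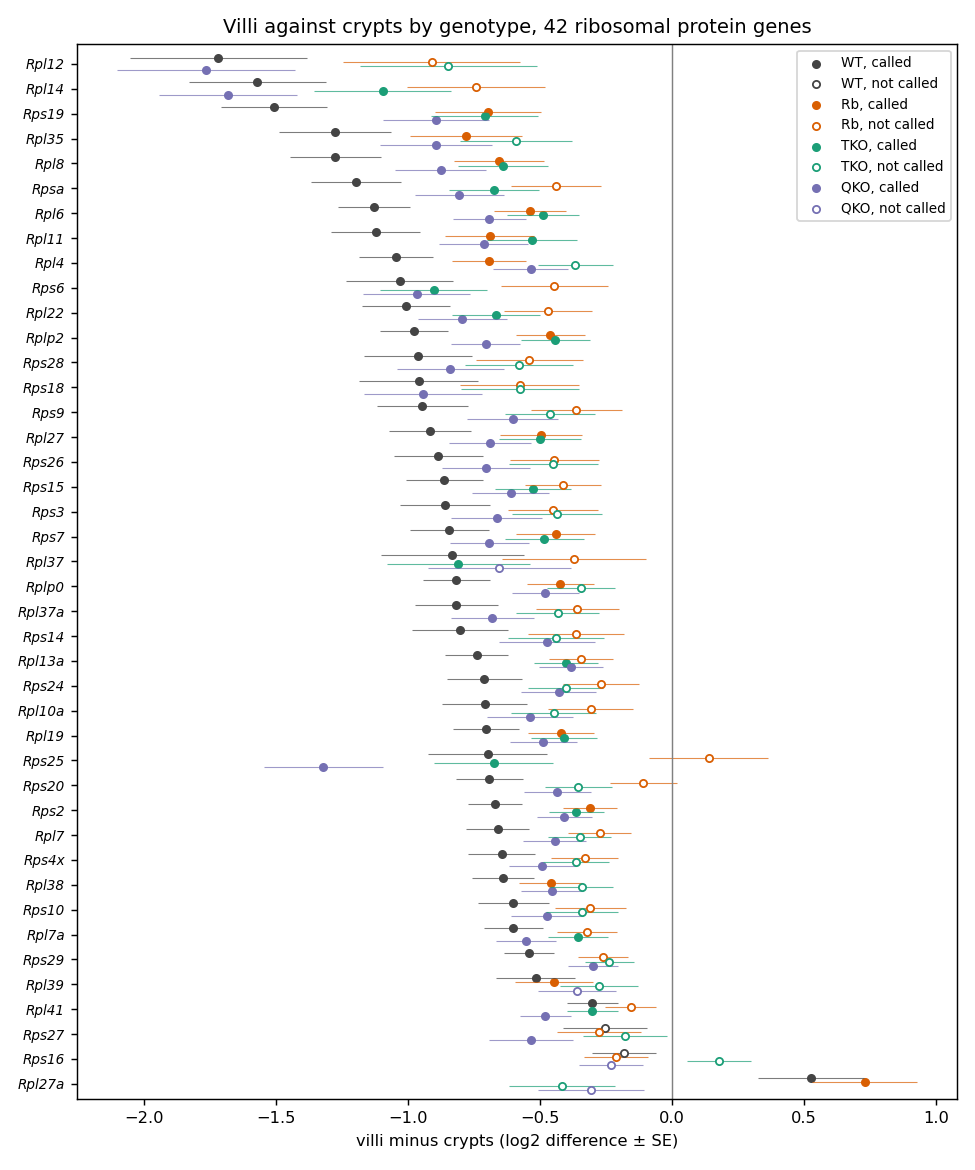
Villus minus crypt difference (log2, x axis) of each of the 42 genes (y axis), with 1 point per genotype, filled where called by limma, and bars for the standard error of the fit on 3 arrays a group. In WT all genes but Rpl27a lie to the left of 0, and most Rb and TKO points lie between the WT point and 0.

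The level of the signal bears on these sizes. Of the members, 33 had a mean between 12.30 and 13.78, in the top of the array's range, where only 402 genes of the series averaged above 12. Across those 33 genes the rank correlation between mean signal and the WT difference was 0.72, a description across genes read on the same arrays. Brighter probe sets thus tended to have the smaller falls. The mean includes the WT villus arrays, so a larger fall itself lowers it, and the correlation is partly built in. All 33 were called lower in WT villi, with a median of -0.84. The other 9 averaged between 3.18 and 9.87, and 6 of them were called lower and 1 higher. Whether the probe sets near the top compress larger changes was not tested.

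Other probe sets of the same genes gave the same picture. Among the 52 further probe sets of the members, 41 were called lower in WT villi and 1 higher, with a median of -0.90, where 15% of all 45037 probe sets were called lower and 14.3% higher. Of those with a mean above 12, 24 of 25 were lower. The 110 probe sets that list a ribosomal protein gene among several genes, which many processed copies of these genes make ambiguous, were called lower in 96 cases and higher in 1, with a median of -0.85. The 1 further member probe set called higher, for Rps24, had a mean of 5.41 and rose by 0.43, while the probe set used for Rps24 fell by 0.71.

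**Figure D3:**
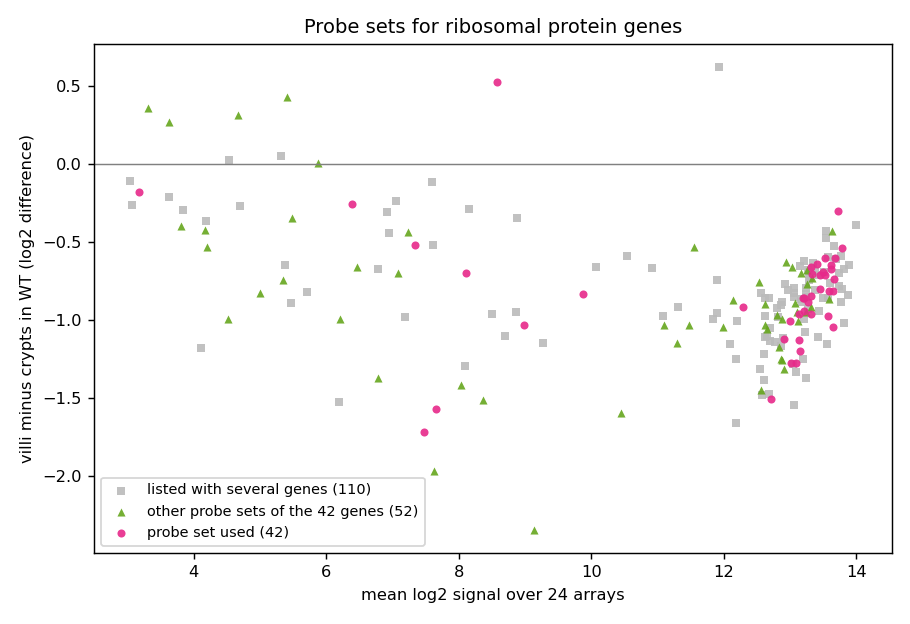
Villus minus crypt difference in WT (log2) against mean log2 signal for the probe set used for each member, the other probe sets of the members and the probe sets that list several genes. Above a mean of 12 all points of the 3 kinds lie below 0, while below it the spread is wider.

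The compartments matched their labels by markers. Of 15 measured dividing-cell markers, 15 were called lower in WT villi, with a median of -2.68, and 13 of 15 measured enterocyte markers were called higher, with a median of 0.72. On the crypt arrays the enterocyte markers averaged between -0.87 and 0.03 relative to their mean over all arrays, and on the villus arrays between 0.17 and 0.63. The highest crypt value, 0.03, was that of Rb crypts 3, whose ribosomal protein median was also the lowest of the crypt arrays, at -0.06.

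The same comparison within each mutant gave falls in the same direction. In Rb mice 14 members were called lower in villi, against 9.65% of all genes, and 1 higher, against 7.61%. Their median difference was -0.42, and 40 of the 42 values were below 0. In TKO mice 19 were called lower, against 8.99%, and none higher, against 6.43%, with a median of -0.44 and 41 values below 0. In QKO mice 38 were lower, against 19.9%, and none higher, against 13.5%, with a median of -0.61 and all 42 below 0. The 4 members not called in QKO were Rpl27a, Rpl37, Rpl39 and Rps16.

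These counts depend on the arrays more than the medians do. In Rb mice, leaving out both WT crypts 3 and Rb crypts 2, the 2 arrays whose Rb1 signal goes against their label, left 2 calls of 15, with a median of -0.34. Without Rb crypts 1 there were 3 calls, without Rb crypts 2 there were 2, without Rb crypts 3 there were 30, without Rb villi 1 there were 4 and without Rb villi 2 there were 6. In TKO mice the count of 19 became 8 without TKO crypts 1, 1 without TKO crypts 2, 33 without TKO villi 1, 10 without TKO villi 2 and 0 without TKO villi 3. Leaving out arrays also moves the threshold for all genes, and the share of all genes called in these refits is not given. These counts thus do not set the members against other genes. Same-numbered crypt and villus arrays of TKO and QKO deviated together. A fit on all arrays, with the number as a block in these 2 genotypes alone, called 37 members in TKO.

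Within each numbered pair of the TKO arrays, the median villus minus crypt difference of the members was -0.29, -0.42 and -0.62. In the 3 QKO pairs it was -0.27, -0.65 and -0.82. Every pair thus showed the fall, and its size differed between the pairs of both genotypes.

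Rps19 read 13.12, 13.29 and 12.75 in Rb crypts and 12.29, 12.30 and 12.48 in Rb villi, a fall of 0.70 (adjusted p = 0.021, limma). In TKO it read 13.33, 13.41 and 13.18 in crypts against 12.92, 12.67 and 12.20 in villi, a fall of 0.71 (adjusted p = 0.021). In QKO it read 13.45, 13.27 and 13.00 against 12.93, 12.18 and 11.92, a fall of 0.90 (adjusted p = 0.0016). The compartments did not overlap in any genotype, and the villus arrays of TKO and QKO spread over more than those of WT did.

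Rplp0 was called lower in Rb villi (-0.42, adjusted p = 0.025, limma) and QKO villi (-0.48, adjusted p = 0.0056) and not in TKO villi (-0.35, adjusted p = 0.071). Rpl13a, which also serves in the GAIT complex that silences inflammatory mRNAs, was called lower in TKO (-0.40) and QKO (-0.38) and not in Rb (-0.35, adjusted p = 0.053). Rpl39, which lines the exit tunnel, was called lower in Rb (-0.45, adjusted p = 0.041) and not in TKO (-0.28) or QKO (-0.36). These values lie close together on both sides of the threshold, and whether the fall in Rb differs from that in TKO or QKO was not tested.

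The largest called falls differed in name between the mutants, in part because of the threshold. In Rb they were Rpl35 (-0.78), Rps19 (-0.70), Rpl4 (-0.69), Rpl11 (-0.69) and Rpl8 (-0.66). In TKO they were Rpl14 (-1.10), Rps6 (-0.90), Rpl37 (-0.81), Rps19 (-0.71) and Rps25 (-0.68). In QKO they were Rpl12 (-1.77), Rpl14 (-1.68), Rps25 (-1.32), Rps6 (-0.97) and Rps18 (-0.94). Rps25, a small-subunit protein that some viral and cellular internal entry sites need, was at 0.14 in Rb and was not called there. Some large falls are missing from these names because they were not called. Rpl12 had the largest fall of all members in Rb, at -0.91, and averaged 8.18 in TKO crypts and 7.33 in TKO villi. Rpl14 averaged 7.80 in Rb crypts and 7.05 in Rb villi. The names thus do not show that different genes fell in different mutants.

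The WT and QKO lists of lower genes shared 37 genes, which is 94.9% of the 39 in WT and 97.4% of the 38 in QKO. All 14 genes lower in Rb villi were among the WT genes (35.9% of the WT list), as were all 19 of TKO (48.7% of the WT list). The WT list holds 39 of the 42 members, so almost any set of members would lie within it. These overlaps with WT therefore carry little information. The genes called lower in villi in all 4 genotypes were the 9 genes Rpl6, Rpl8, Rpl11, Rpl19, Rpl27, Rplp2, Rps2, Rps7 and Rps19. The 4 comparisons use separate arrays, but they share 1 fit and its estimate of the spread.

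Between genotypes, most calls among the members were in villi. In Rb villi 6 members were called higher than in WT villi, against 8.59% of all genes, and none lower, against 6.19%, with a median of 0.34 and 40 of 42 values above 0. The arrays of the 2 genotypes did not overlap for 37 members, all higher in Rb, against 17% of all genes. The test uses 1 spread per gene, pooled over all 8 groups. The array medians of the members varied less in Rb villi (SD 0.06) and WT villi (SD 0.07) than in QKO villi (SD 0.37). In TKO villi 23 were called higher, against 6.21%, and none lower, against 3.57%, with a median of 0.50 and all 42 values above 0. For 33 members the TKO and WT villus arrays did not overlap, against 14.4% of all genes. Both comparisons use the same WT villus arrays.

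**Figure D4:**
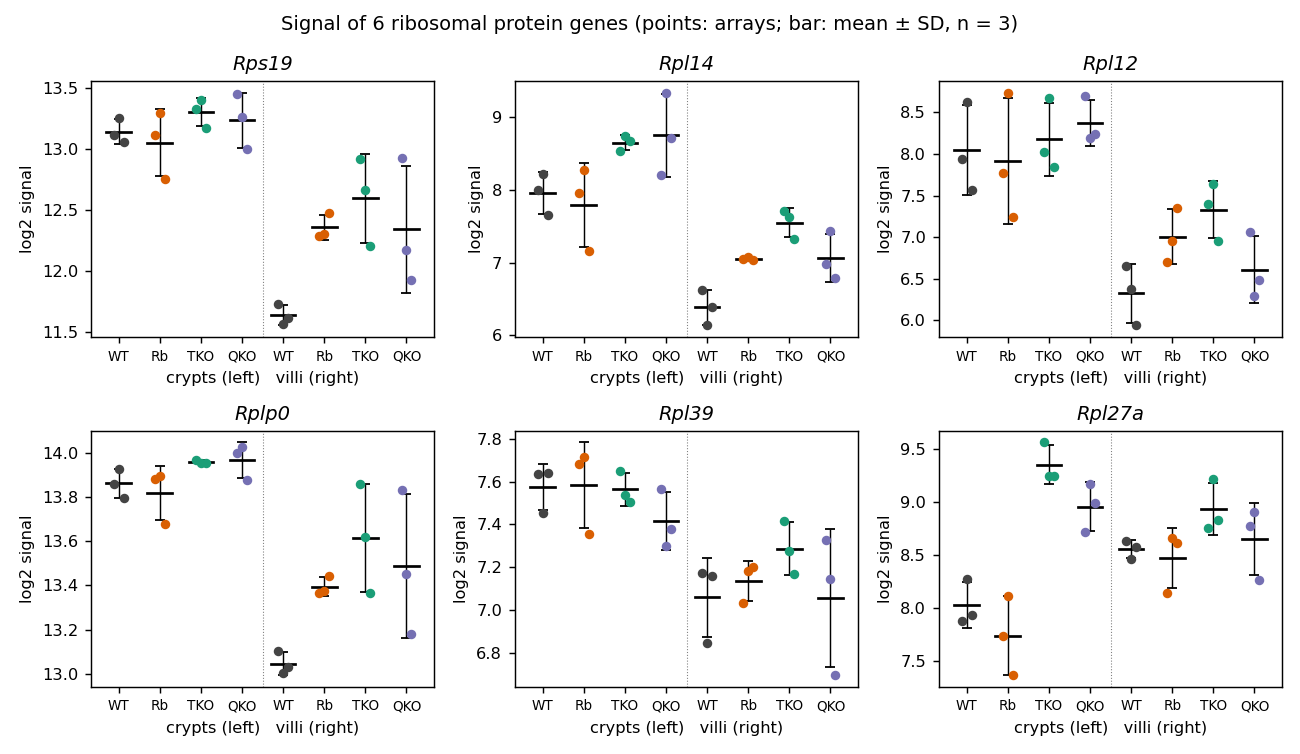
Log2 signal (y axis) of Rps19, Rpl14, Rpl12, Rplp0, Rpl39 and Rpl27a on each array, grouped by genotype and compartment (x axis), with 1 point per array and bars for the mean and SD of 3. For Rps19 and Rplp0 the WT villus arrays lie below those of every other group, while for Rpl27a the TKO and QKO crypt arrays lie above those of WT and Rb crypts.

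Rps19 in villi read 11.73, 11.57 and 11.62 in WT, 12.29, 12.30 and 12.48 in Rb and 12.92, 12.67 and 12.20 in TKO. No Rb or TKO array was as low as the highest WT array. The difference from WT was 0.72 ± 0.20 in Rb (adjusted p = 0.017, limma) and 0.96 ± 0.20 in TKO (adjusted p = 0.0033). Rpsa read 12.39, 11.99 and 12.43 in WT, 12.93, 12.90 and 13.02 in Rb and 13.11, 13.01 and 12.63 in TKO villi. It was higher by 0.68 ± 0.17 in Rb (adjusted p = 0.0081) and by 0.65 ± 0.17 in TKO (adjusted p = 0.017). Rplp2 read 12.97, 12.75 and 12.86 in WT, 13.31, 13.27 and 13.32 in Rb and 13.77, 13.55 and 13.26 in TKO villi, higher by 0.44 in Rb (adjusted p = 0.025) and by 0.67 in TKO (adjusted p = 0.0019). For these 3 genes the WT arrays were the lowest, and the TKO arrays spread more than the Rb arrays.

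The other 3 genes called in Rb villi were Rpl8 (0.52), Rpl6 (0.49) and Rps20 (0.48), and all 3 were also called in TKO villi, at 0.63, 0.69 and 0.55. Among the rest called in TKO villi, Rpl14 was higher by 1.17 ± 0.26 (adjusted p = 0.0055, limma), Rpl35 by 0.71, Rplp0 by 0.57 (adjusted p = 0.0054) and Rpl13a by 0.51 (adjusted p = 0.0083). Rplp0 read 13.10, 13.00 and 13.03 in WT villi, 13.37, 13.37 and 13.44 in Rb villi, and 13.86, 13.62 and 13.37 in TKO villi. Its Rb difference of 0.35 was not called (adjusted p = 0.07), although no Rb array overlapped WT. Rps6 was not called in either comparison (0.32 in Rb, 0.39 in TKO), nor was Rpl12 (0.68 and 1.01).

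The count in Rb villi also rested on single arrays. Without WT villi 2 or WT villi 3 there were 2 calls each, without Rb villi 2 there were 3 and without Rb villi 3 there was 1. In TKO villi the count of 23 became 8 without WT villi 2, 10 without WT villi 3, 6 without TKO villi 1 and 8 without TKO villi 2. The share of all genes called in these refits is not given. Among the further member probe sets, 3 of 52 were called higher in Rb villi, a share no larger than the 6.52% of all probe sets of that fit. In TKO villi 19 of 52 were called higher, against 4.19% of all probe sets.

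Several measures moved with these differences, and their part in them was not tested. The mean signal of the poly-A spike-in controls lay between 5.44 and 7.13 on all WT and Rb arrays and between 9.70 and 11.89 on all TKO and QKO arrays, so the TKO minus WT and QKO minus Rb comparisons cannot be told apart from it. The Rb minus WT and QKO minus TKO comparisons do not cross that gap, but within it QKO villi (11.28 to 11.89) lay above TKO villi (10.52 to 10.77). The hybridisation controls were at 10.81 to 11.16 in WT crypts and 10.93 to 11.11 in Rb crypts. In TKO crypts they were at 10.57 to 10.70 and in QKO crypts at 10.55 to 10.98. In villi they were at 10.23 to 10.47 in WT and 10.28 to 10.35 in Rb. In TKO villi they were at 10.76 to 10.95 and in QKO villi at 11.23 to 11.45. They thus separate crypts from villi in every genotype, TKO from WT in both compartments, and QKO villi from Rb and TKO villi. The poly-A controls also lay apart between Rb crypts (5.44 to 5.79) and Rb villi (5.98 to 7.13). The same held between QKO crypts (9.70 to 10.37) and QKO villi. The Y-linked gene Eif2s3y read at most 3.46 on WT arrays and at least 9.46 on QKO arrays, and TKO crypts and TKO villi held both sexes. In Rb it read at most 3.29 on the crypt arrays and 9.24, 3.15 and 9.24 on the villus arrays, so the Rb villus minus crypt comparison is not balanced by sex. By the same signal, neither are Rb or TKO against WT villi, TKO against WT crypts, or QKO against Rb and TKO in either compartment. The 3′ minus 5′ signal of the actin control is a sign of RNA quality. It lay at 0.80 to 1.36 in WT villi, 0.86 to 0.91 in Rb villi and 0.72 to 1.03 in TKO villi, which overlap. In QKO villi it lay at 1.03 to 1.31, above Rb villi. That of Gapdh lay at 0.12 to 0.28 in QKO villi, above TKO villi (-0.004 to 0.03) and Rb villi (-0.08 to -0.06). In Rb crypts actin (0.72 to 0.83) and Gapdh (-0.18 to -0.12) both lay below Rb villi. The Gapdh signal of WT crypts lay just below that of WT villi.

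Dividing-cell markers moved with the genotypes too. Relative to their mean over all arrays, the 15 measured markers averaged between -1.97 and -1.68 in WT villi, between -0.66 and -0.13 in TKO villi, between -0.85 and -0.66 in QKO villi and between 0.38 and 0.57 in Rb villi. Of them 15 were called higher in Rb villi than in WT villi, with a median of 2.36, and 12 in TKO villi, with a median of 1.57. Goblet cell markers were called lower in 6 of 9 cases in TKO against WT villi, with a median of -0.97, and enteroendocrine markers in 5 of 10 cases in Rb against WT villi, with a median of -1.09. In Rb villi the dividing-cell markers lay near the crypt level, which was 0.53 to 1.01 in Rb crypts. The ribosomal protein medians of the Rb villus arrays were -0.28, -0.26 and -0.16. They lay between those of WT villi (-0.49, -0.63 and -0.58) and those of WT crypts (0.23, 0.36 and 0.15).

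QKO villi were compared with the villi of both other mutants. Against Rb villi, 1 member was called, against 8.02% of all genes called lower: Rpl37a, lower by 0.49 (adjusted p = 0.03, limma). It was lost when all probe sets of a gene were averaged. The median difference was 0.01. Against TKO villi none was called by limma, where 6.68% of all genes were called in either direction. All 42 values were below 0, against 42.4% of all genes, with a median of -0.17. At an unadjusted p under 0.05 there were 4 members, all lower. Of all genes, 20.6% were under it in either direction, most of them higher (14.7% of all genes).

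The 3 QKO villus arrays differed among themselves. Their ribosomal protein medians were 0.15, -0.24 and -0.59, and Rplp2 read 13.60, 13.34 and 13.01. In the same order, the 8 fibroblast markers averaged 0.014, 1.4996 and 1.81 and the 8 macrophage markers -0.24, 0.71 and 1.78 relative to their mean over all arrays. The order of the ribosomal protein medians is thus the reverse of that of both marker lists. Enterocyte markers rose over the 3 arrays as well (0.32, 0.59 and 0.63), and crypt stem cell markers fell (-0.61, -0.64 and -0.84). T cell markers (1.21, 1.01 and 1.84) and those of goblet, enteroendocrine and tuft cells neither rose nor fell throughout. An order of 3 arrays is only a description, and the part of any cell type in it was not tested. Enteroendocrine markers were called higher in QKO villi for 8 of 10 genes against Rb villi (median 2.66) and for 8 of 10 against TKO villi (median 1.95). The array median signal of QKO villi 3 was 5.26 and that of QKO crypts 2 was 5.17, against 4.97 to 5.08 on all other arrays. Without these 2 arrays the villus minus crypt count in QKO was 16, all lower, with the share of all genes in that refit not given. The median difference from TKO villi was then 0.02.

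In crypts few members were called between genotypes. Between Rb and WT crypts none was called by limma, and 0% of all genes were called. At an unadjusted p under 0.05 there were 0 members, against 3.9% of all genes. The median was -0.07. This comparison holds WT crypts 3 and Rb crypts 2, whose Rb1 signal goes against their label. It therefore cannot show whether Rb loss leaves the crypt levels unchanged. Between QKO and TKO crypts none was called, against 1.61% of all genes, with 0 at an unadjusted p under 0.05, against 17.3%, and a median of 0.01. Between TKO and WT crypts 1 was called higher, where 1.93% of all genes were called higher, and between QKO and Rb crypts 3 were called higher, against 13.4%. Medians there were 0.13 and 0.20, with 34 and 35 of the 42 values above 0, against 53.5% and 57.0% of all genes.

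The 1 gene called in both of the latter comparisons was Rpl27a, a large-subunit protein. It read 7.88, 8.27 and 7.93 in WT crypts, 7.73, 8.12 and 7.37 in Rb crypts, 9.56, 9.24 and 9.24 in TKO crypts and 8.71, 9.17 and 8.99 in QKO crypts. All TKO and QKO crypt arrays lay above all WT and Rb crypt arrays. The difference was 1.32 ± 0.20 for TKO against WT (adjusted p = 0.00078, limma) and 1.22 for QKO against Rb. The other 2 genes called in QKO crypts were Rps25, at 1.14 ± 0.23 (adjusted p = 0.0015), and Rpl14, at 0.95 ± 0.26 (adjusted p = 0.015), whose arrays overlapped. All 3 are among the 9 members with a mean below 12, and the poly-A control gap runs across both comparisons. The signs of RNA quality separate there too: the 3′ minus 5′ signal of actin was 1.11 to 1.20 in QKO crypts and 0.72 to 0.83 in Rb crypts, and that of Gapdh was 0.01 to 0.16 in TKO crypts and -0.17 to -0.14 in WT crypts. Goblet cell markers were called lower in 7 of 9 cases in TKO against WT crypts and 8 of 9 in QKO against Rb crypts. The part of these measures in the 3 calls was not tested.

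Whether the fall from crypt to villus itself differed between genotypes was tested as an interaction. The villus minus crypt difference in Rb less that in WT had a median of 0.42 over the members and was above 0 for 40 of them, but none passed the limma adjusted threshold, against 5.22% of all genes. At an unadjusted p under 0.05 there were 17 members, all higher, against 9.98% of all genes on the higher side and 19.4% in either direction. For TKO against WT the median was 0.35, with 40 above 0, none called against 3.43% of all genes, and 13 at an unadjusted p under 0.05, against 16.9%. For QKO against TKO the median was -0.16, with 39 below 0, none called against 0.0605%, and 1 at an unadjusted p under 0.05, against 9.32%. With arrays weighted by their quality, 7 members were called higher for Rb, where that fit called 6.27% of all genes higher. For TKO 9 were called higher and 1 lower, against 5.84% and 3.02% of all genes.

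Relatives left out by the rule were read the same way. Of 8 ribosomal protein genes or paralogs outside the rule, 3 were called lower in WT villi: Rpl22l1 (-0.997), Rpl7l1 (-0.93) and Rps3a1 (-0.92). Of all genes, 18.6% were called lower there. Rpl22l1 is a paralog of Rpl22, and Rps3a1 encodes a core small-subunit protein whose symbol the rule's pattern does not match. Fau, whose product is a ubiquitin-like protein fused to Rps30, was at 0.04 and was not called. Fau read 13.64, 13.61 and 13.54 in WT crypts and 13.69, 13.55 and 13.67 in WT villi, so the arrays of the 2 compartments overlapped.

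The other genes of ribosome production were counted from lists. Of 43 measured genes of ribosome biogenesis, the factors that process ribosomal RNA and assemble the subunits, 42 were called lower in WT villi, with a median of -1.46. Among them Dkc1, the pseudouridine synthase of the box H/ACA particles, was at -2.46, Pes1 at -2.21 and Noc2l at -1.98. Of 13 measured genes of RNA polymerase I and its factors, 11 were lower, with a median of -0.79. Polr1a, the largest subunit, was at -1.58 and Polr1b at -1.63. Of all genes, 18.6% were called lower in WT villi, the share to set beside the lower counts of these and the following lists.

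Elongation factors and other genes with TOP mRNAs were lower in 17 of 20 cases, with a median of -0.89, and initiation factors in 14 of 18, with a median of -0.83. Eef1d was at -1.43, Npm1, the nucleolar chaperone, at -1.55, Eif3a at -1.749 and Eif4a1 at -1.30. Of 20 regulators in the Myc and mTOR list, 8 were lower and 4 higher. Myc fell by 2.298 and Larp1 fell by 1.15, while Mxd1, which opposes Myc at E-boxes, rose by 1.93. Of 8 genes of the ribosomal stress response 2 were higher, Mdm2 by 0.89 among them. For these last lists the share called higher is near the 18.8% of all genes.

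**Figure D5:**
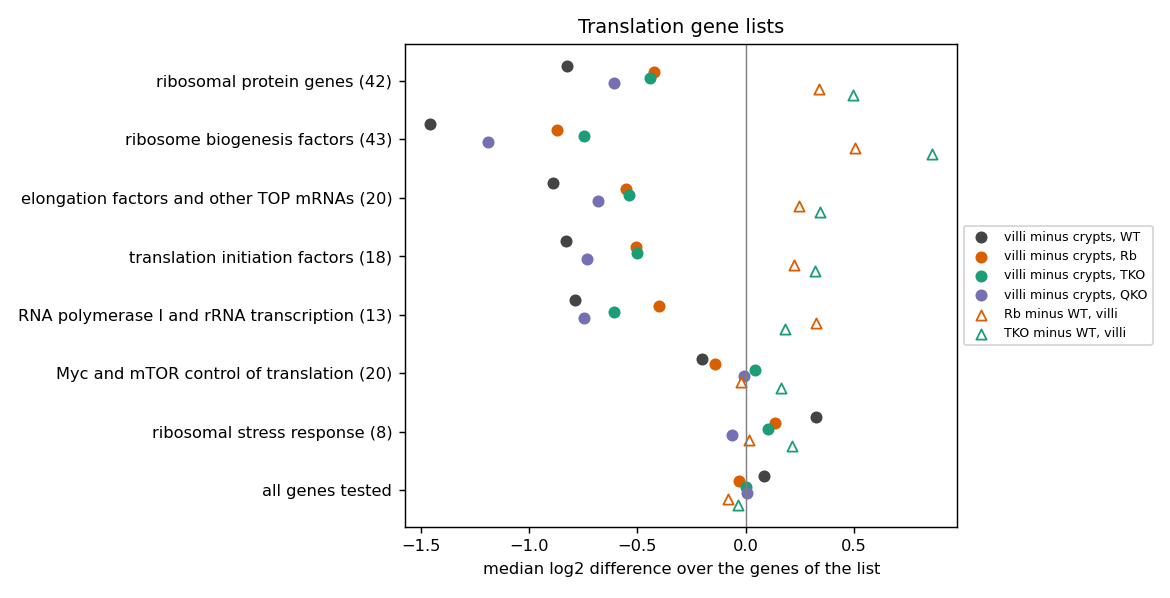
Median log2 difference (x axis) of the ribosomal protein genes, of the other lists of ribosome production and of all genes tested (y axis, with the number measured), filled circles for villi minus crypts in each genotype and open triangles for Rb or TKO minus WT in villi. Ribosome biogenesis factors have the lowest median in the WT villus minus crypt comparison, at -1.46, against -0.83 for the ribosomal proteins.

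Biogenesis factors were lower in villi in 39 of 43 cases in Rb, 39 in TKO and 42 in QKO, with medians of -0.87, -0.75 and -1.19. Of all genes, 9.65%, 8.99% and 19.9% were called lower there. In Rb villi 17 biogenesis factors were higher than in WT villi and none lower, with a median of 0.50. In TKO villi 34 were higher than in WT villi and none lower, with a median of 0.86. Of all genes, 8.59% were called higher in Rb villi and 6.21% in TKO villi. Nhp2 was higher in TKO villi by 1.55, Dkc1 by 1.52 and Npm1, counted with the TOP genes, by 1.26. The list of 20 elongation and other TOP genes had 3 higher in Rb villi and 6 in TKO villi. The initiation list of 18 had 4 and 5, and the RNA polymerase I list of 13 had 0 and 4. Eif4ebp1, the inhibitor of eIF4E that mTOR inactivates, was higher by 0.79 in Rb villi and by 0.95 in TKO villi. The 20 regulators in the Myc and mTOR list had 4 higher and 2 lower in Rb villi, with a median of -0.02. In TKO villi 2 of these regulators were higher and 0 lower, with a median of 0.16. That list thus did not shift as Eif4ebp1 did. In crypts, 14 of the 43 biogenesis factors were higher in QKO than in Rb and none lower, with a median of 0.39. Of all genes, 13.4% were called higher there, and the poly-A control gap lies across this comparison.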

How the data were processed

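Total RNA extracted with Trizol from crypts and villi was turned into biotin-labelled cRNA and read on 24 Affymetrix mouse arrays, per the labels' protocols. The authors deposited log2 values per probe set, from 2.29 to 14.9, with their summary and normalization steps not stated in any source used here. The platform annotation gave 1 gene to 34945 of 45101 probe sets, several to 932 and none to 9160, and 64 were controls. Symbols were updated through Entrez identifiers for 34741 probe sets and kept for 204. Each of 18193 genes was read on its probe set with the highest mean.

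All tests were made by limma 3.58.1 under R 4.3.3 (1 mean per group over 24 arrays, intensity trend, 16 residual degrees of freedom, Benjamini-Hochberg over all genes, calls at an adjusted p under 0.05). The script was tested on simulated data. No test was run over the members as a list. The number of arrays limits the precision.

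Arrays of a group correlated at 0.980 to 0.994, and no 2 were identical. Deviations from the group means of same-numbered crypt and villus arrays correlated at 0.61, 0.55 and 0.64 in TKO and 0.55, 0.25 and 0.37 in QKO, so the numbers pair the arrays there by the values, and not in WT (0.01, 0.13 and 0.00) or Rb (0.06, -0.01 and -0.24). Named were up to 5 members with the largest called rise and fall in each comparison, a set of members always, and up to 3 genes of each other list by p. Rps24's further probe set, Rps16, Rps27, Rpl37a and Fau were singled out after their values were seen. The members and lists were chosen with earlier results of these data known. Alternatives were another normalization, centring, filters on dim genes, averaged probe sets, array weights, replicate blocks and leaving out arrays.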

Additional observations from a re-analysis of the deposited data

How the results depend on the processing

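Where arrays were weighted by quality, the members called numbered 36 in the villus minus crypt comparison of Rb (15 in the reported analysis), 36 in that of TKO (19), 33 in Rb against WT villi (6), 36 in TKO against WT villi (23), 3 in TKO against WT crypts (1), and 7 and 10 in the interactions of Rb and TKO with WT (0 and 0). This fit also called more of all genes in the first 4 (32.4%, 20%, 28.1% and 18% in either direction). With the dim genes left out the counts were 26, 31 and 10 in the first 3 of these, 5 in QKO against Rb crypts (3), and 2 and 3 in the interactions. With the mean of all probe sets of a gene they were 0 in QKO against Rb villi (1), 2 in TKO against WT crypts, 5 in QKO against Rb crypts and 1 in the TKO interaction. Quantile normalization gave 1 and 2 in the interactions. With the replicate block over all genotypes the count was 23 in Rb villi minus crypts and 2 and 3 in the interactions. In a fit on all arrays with the block in TKO and QKO alone, chosen after seeing the data, it was 37 in TKO villi minus crypts. It was 2 in the TKO interaction. The block moved no other count by more than 1.5 times.

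Without WT crypts 3 and Rb crypts 2, the count was 2 in Rb villi minus crypts and 5 in QKO against Rb crypts. Without QKO villi 3 and QKO crypts 2 it was 16 in QKO villi minus crypts (38) and 0 in QKO against Rb villi, and the median differences were -0.41 in QKO villi minus crypts, 0.02 in QKO against TKO villi and 0.03 in the QKO interaction.

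Leaving out 1 array at a time gave 37 to 39 calls in WT villi minus crypts, 2 to 30 in Rb, 0 to 33 in TKO and 26 to 40 in QKO. In villi it gave 1 to 6 for Rb against WT, 6 to 30 for TKO against WT, 0 to 3 for QKO against Rb and 0 to 4 for QKO against TKO. In crypts it gave 0 to 0 for Rb against WT, 1 to 1 for TKO against WT, 2 to 5 for QKO against Rb and 0 to 0 for QKO against TKO. The interaction counts were 0 to 0 for Rb, 0 to 4 for TKO and 0 to 0 for QKO. The cause of these moves was not tested. Except for the array weights, the share of all genes called in each alternative is not given. The counts there thus do not set the members against other genes. Of 2809 recomputed values of 177 named results, 2604 kept their direction and side of the threshold, 145 lost the call, 60 gained one and 0 reversed.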
